A study of Mus musculus with 4 samples.

Results

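Mitochondrially encoded respiratory genes were taken here as 10 protein-coding genes of the mouse mitochondrial chromosome, chosen by symbol from the 32285 genes of the expression tables: mt-Nd1, mt-Nd2, mt-Nd3, mt-Nd4 and mt-Nd5 of complex I, mt-Cytb of complex III, mt-Co1 and mt-Co2 of complex IV, and mt-Atp6 and mt-Atp8 of complex V. The choice was by symbol and set no limit on a measured value, but it was made with earlier results of these data known. The tables held 3 other mitochondrial genes of this kind, mt-Co3, mt-Nd4l and mt-Nd6, which are given beside the 10. The 10 genes made up 80.7 to 81.4% of the mitochondrial UMIs (unique molecular identifiers, each standing for 1 captured RNA molecule) of a library.

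The samples were 4 droplet libraries of live CD3+ T cells sorted from subcutaneous tumors of wild-type C57BL/6J mice, which the study's methods describe as young males. All tumors grew from 105K, a mouse kidney tumor cell line without Tsc2. The control group (sh-NC, 2 libraries) came from tumor cells with a short hairpin RNA that has no target. The knockdown group (sh-B7-H3 (1), 2 libraries) came from tumor cells with 1 hairpin against Cd276, which encodes B7-H3, an immune checkpoint protein of the tumor cell surface, so Cd276 in the sorted T cells checks nothing. Tumors were pooled by group, 80 for each, and the labels and the study's text differ on whether the libraries of a group were lanes of that pool or separate samples. They were read here as lanes, so every p-value speaks of these pools and not of other mice, and knockdown and handling cannot be told apart where handling differed by group.

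The mitochondrial genome of the mouse is a small circle that is transcribed from both strands into long precursors, which are cut at the tRNA genes into individual messenger RNAs, most of which then receive a short poly(A) tail. Its protein genes encode core subunits of the respiratory chain, while all other subunits come from nuclear genes. Complex I passes electrons from NADH, complex III from ubiquinol to cytochrome c, and complex IV from cytochrome c to oxygen. Complex V, the ATP synthase, uses the proton gradient that the others build. A high share of mitochondrial UMIs is also a common sign of a damaged cell in droplet data, and the study's methods set a limit on it.

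The genes were placed on GRCm38, the mm10 build, by their identifiers, and the sequences printed are those of that genome on the plus strand. The 10 genes all lie on the plus strand and have no introns. mt-Atp8 (ENSMUSG00000064356) is shown whole because it had the largest difference between the groups among the 10 genes in each class compared. It is the shortest of the 10, with 204 bases, and shares its last 43 bases, in capitals, with the start of mt-Atp6. Both are read from 1 messenger RNA, and the end of mt-Atp8 lies 638 bases before the end of mt-Atp6. A read inside the shared bases cannot be assigned to either gene.
mt-Atp8 (chrM:7766-7969): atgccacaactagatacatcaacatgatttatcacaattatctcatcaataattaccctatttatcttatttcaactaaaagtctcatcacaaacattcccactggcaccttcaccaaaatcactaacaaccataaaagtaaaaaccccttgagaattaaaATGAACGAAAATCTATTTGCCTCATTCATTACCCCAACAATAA

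For 4 genes of complex I the last 60 bases are shown, with the stop codon bases that the gene itself encodes in capitals, because mt-Nd3 and mt-Nd2 had the largest and mt-Nd4 and mt-Nd5 the smallest differences between the groups in this complex. mt-Nd4 encodes only 1 base of its stop codon, so that the poly(A) tail completes it, as in mt-Cytb. mt-Nd5 ends 14 bases inside mt-Nd6, which lies on the minus strand.
mt-Nd3 (chrM:9747-9806): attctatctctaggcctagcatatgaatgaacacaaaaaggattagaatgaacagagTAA
mt-Nd2 (chrM:4892-4951): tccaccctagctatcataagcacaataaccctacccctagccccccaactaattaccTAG
mt-Nd4 (chrM:11485-11544): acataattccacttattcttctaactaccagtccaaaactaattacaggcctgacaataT
mt-Nd5 (chrM:13506-13565): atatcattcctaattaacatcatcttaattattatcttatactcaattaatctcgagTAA

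The called barcodes numbered 7030 to 12112 per library with 79224898 to 132820909 RNA UMIs, and 5311 to 9189 were kept because they held 200 to 3000 genes. Barcodes with over 3000 genes, 2439 and 2517 in control and 1507 and 1978 in knockdown libraries, were left out throughout. Kept barcodes held 73348899 of 132820909 and 63695197 of 126586948 called RNA UMIs in control libraries. In knockdown libraries they held 33176221 of 79224898 and 44142010 of 102213924. No alternative lifted this upper limit. No limit on mitochondrial UMIs was set. Kept barcodes had a median of 7865 and 8353 RNA UMIs in the control libraries against 6298 and 6397.5 in the knockdown libraries. Libraries shared 17 to 35 barcode sequences in pairs. Cd4 cells held at least 1 Cd4 UMI and none of Cd8a, Cd8b1 or Foxp3, Cd8 cells held at least 2 UMIs of Cd8a and Cd8b1 and none of Cd4 or Foxp3, and Foxp3 cells held at least 1 Foxp3 UMI and none of Cd8a or Cd8b1. Foxp3 marks regulatory T cells. Each lineage was split at 20 UMIs of Ccl5, a chemokine of effector T cells, and 29.9 to 41.5% of kept barcodes had no lineage. Of the markers that the calls did not use, Il2ra was at 2.01 to 2.85 UMIs per 10000 RNA UMIs in Foxp3 cells and at 0.0666 to 0.160 in Cd4 cells, both with Ccl5 under 20. The effector gene Nkg7 was at 49.6 to 55.0 in Cd4 cells with Ccl5 at least 20 and at 0.376 to 3.81 in those under 20. Gzmk was at 2.95 to 5.63 against 0.0137 to 0.173. Gzmb was at only 0.267 and 0.331 in knockdown Cd4 cells with Ccl5 at least 20, under its 1.07 and 0.720 in knockdown Foxp3 cells with Ccl5 under 20. Foxp3 cells with Ccl5 at least 20 numbered 14 to 25 per library, fewer than the 50 needed for a test.

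The level of a gene is its UMIs per 10000 RNA UMIs summed over the barcodes of a class. In such sums fewer cells of a type and less RNA per cell cannot be told apart, and intervals and errors cover counting and the spread of lanes only. The chemistry counts molecules from a poly(A) end, and levels of different genes were compared per kilobase of gene. Over all kept barcodes and averaged over the 4 libraries, mt-Atp6, the proton channel subunit of complex V, had the highest level of the 10 at 133 UMIs per 10000 per kilobase, followed by mt-Co2 at 91.0, mt-Co1 at 51.3 and mt-Cytb at 36.1. mt-Nd2 at 26.7, mt-Nd3 at 25.7 and mt-Nd1 at 24.2 were close neighbours, and mt-Nd4 at 15.7, mt-Atp8 at 12.7 and mt-Nd5 at 3.55 followed. Of the genes outside the 10, mt-Co3 was at 103.6, mt-Nd4l at 11.4 and mt-Nd6 at 1.18 UMIs per 10000 per kilobase. Some of this order depended on the group. mt-Nd1 and mt-Nd2 overlapped in the control libraries (21.6 and 21.8 against 21.9 and 21.8 per kilobase), whereas mt-Nd2 and mt-Nd3 overlapped in the knockdown libraries (31.7 and 31.5 against 31.5 and 32.1). Per kilobase, mt-Nd3 lay under mt-Nd1 in control libraries, at a mean of 19.5 against 21.7, and above it under knockdown, at 31.8 against 26.7. mt-Atp8 likewise lay under mt-Nd4 in control libraries, at 8.05 against 15.8, and above it under knockdown, at 17.4 against 15.6. The order per kilobase rests on the division by gene length, although UMIs counted from a poly(A) end need not grow with length. Without it, mt-Co1 lay above mt-Co2, at a mean of 75.1 against 54.9 UMIs per 10000 in control libraries, and mt-Atp8, at 1.64, lay under mt-Nd5 at 6.53 and mt-Nd4 at 21.8.

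**Figure D1:**
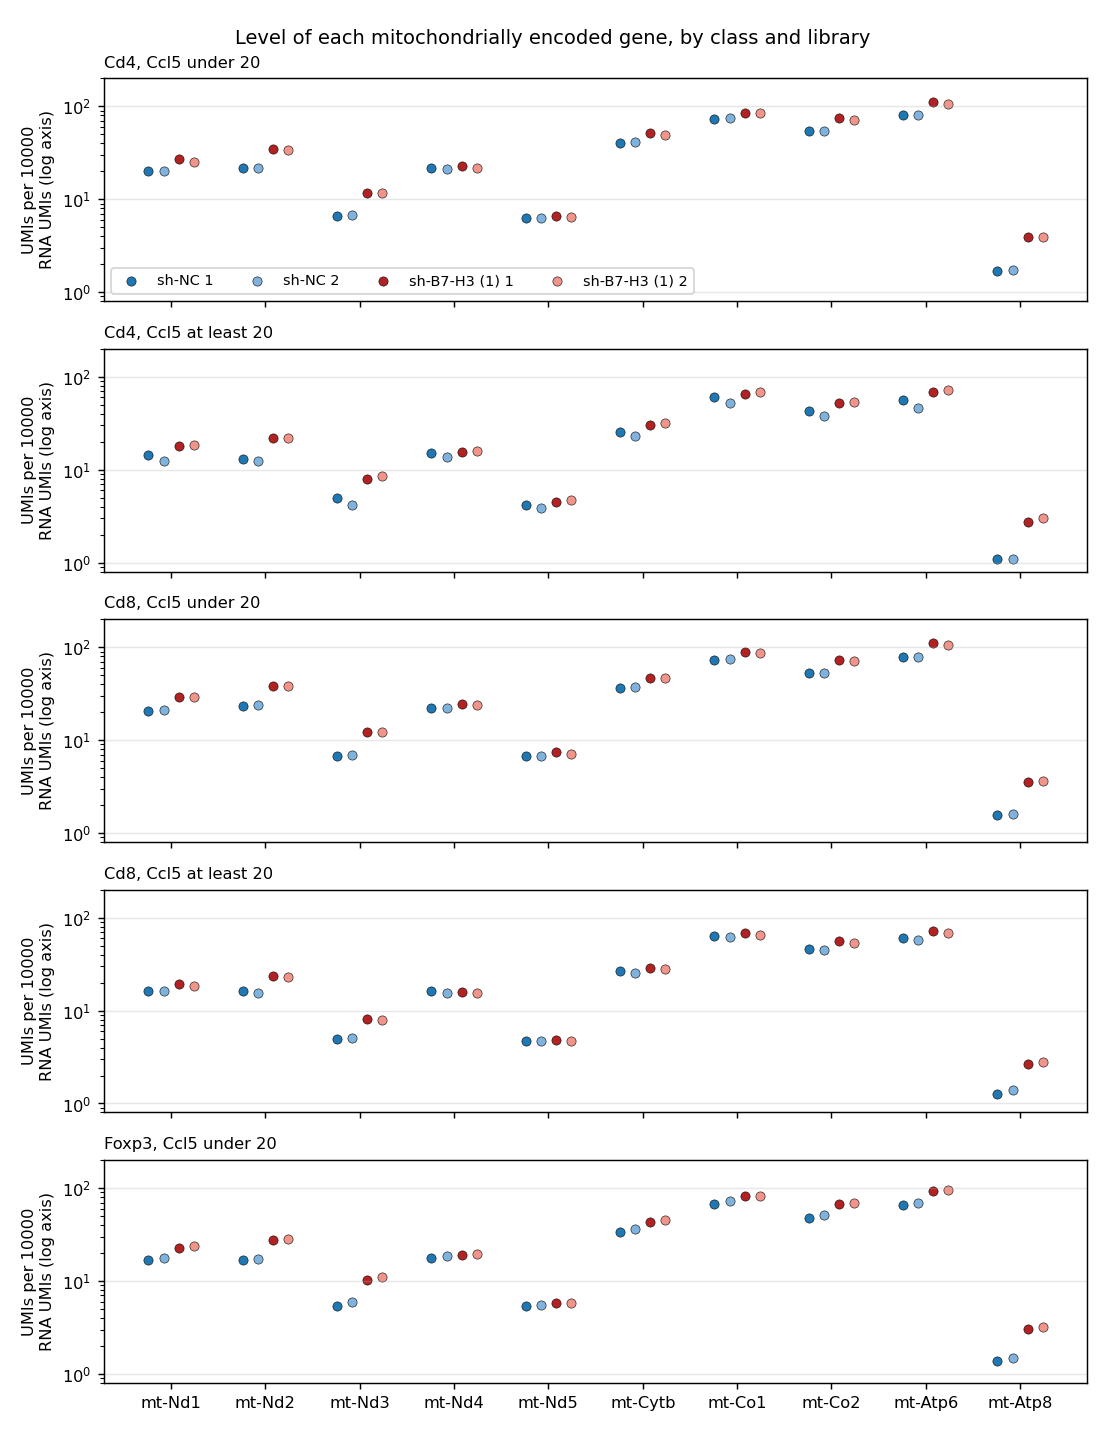
UMIs per 10000 RNA UMIs (log axis) of each of the 10 genes in each class with at least 50 barcodes per library; each point is 1 library, with the control libraries sh-NC 1 and 2 in blue and the knockdown libraries sh-B7-H3 (1) 1 and 2 in red. mt-Atp8 and mt-Nd3 show the widest gap between blue and red points in every class, while the points of mt-Nd4 and mt-Nd5 lie close together.

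The 10 genes together were higher in the knockdown libraries in every class tested. In Cd4 cells with Ccl5 under 20 they took 327 and 327 UMIs per 10000 in control libraries against 430 and 414 under knockdown, a mean of 3.27% ± 0.00255 (SD, n = 2) against 4.22% ± 0.118 (SD, n = 2) of RNA UMIs. Cd8 cells with Ccl5 under 20 gave 321 and 325 against 434 and 425 UMIs per 10000. Foxp3 cells with Ccl5 under 20 gave 279 and 295 against 374 and 382. The gap was narrower in Cd8 cells with Ccl5 at least 20, at 255 and 248 against 301 and 288, and in Cd4 cells with Ccl5 at least 20 the values were 238 and 207 against 288 and 297. The groups did not overlap in any of these 5 classes.

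Genes were tested one by one with edgeR's quasi-likelihood test on the summed UMIs, with p-values adjusted by Benjamini-Hochberg over all genes tested and a threshold of 0.05. In Cd4 cells with Ccl5 under 20, 9 of the 10 genes were called higher and 0 lower, where 6.42% of all genes were called higher, and the median log2 fold change was 0.42 for the 10 against 0.01 for all genes. All 10 were called higher in Cd8 cells with Ccl5 under 20, against 8.55% of all genes. In Cd4 cells with Ccl5 at least 20, 9 were called higher against 1.28% of all genes, in Cd8 cells with Ccl5 at least 20, 8 against 7.96%, and in Foxp3 cells with Ccl5 under 20, 8 against 2.33%. None of the 10 was called lower in these classes. The log2 fold changes ran from -0.01 for mt-Nd4 in Cd8 cells with Ccl5 at least 20 to 1.45 for mt-Atp8 in Cd4 cells with Ccl5 at least 20.

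**Figure D2:**
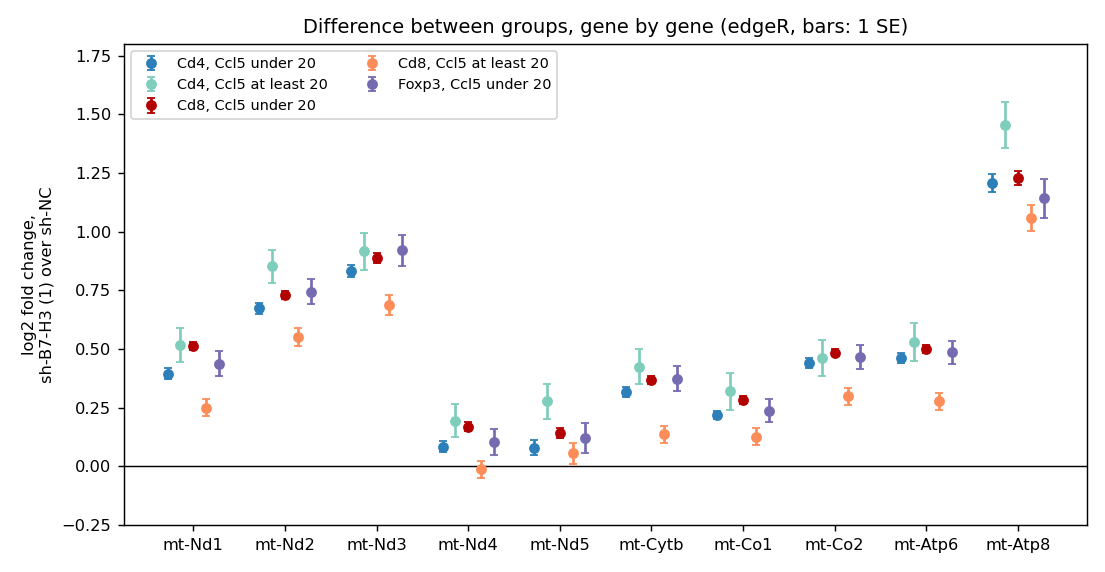
Log2 fold change of each gene, knockdown over control, in 5 classes, with bars of 1 standard error from edgeR. mt-Atp8 lies at 1.06 to 1.45, mt-Nd3 at 0.69 to 0.92 and mt-Nd2 at 0.55 to 0.85, whereas mt-Nd4 and mt-Nd5 lie between -0.01 and 0.28.

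The genes of complex I differed among themselves. mt-Nd3, a small membrane subunit, was at 6.64 and 6.72 UMIs per 10000 in control libraries against 11.7 and 11.8 under knockdown in Cd4 cells with Ccl5 under 20, a 1.78-fold rise (log2 0.83, SE 0.027, adjusted p = 3.00e-15). mt-Nd2, a proton-pumping membrane subunit, was at 21.7 and 21.6 against 34.6 and 33.7, a 1.59-fold rise (log2 0.67, SE 0.022, adjusted p = 3.06e-15). Each of these knockdown libraries lay above both control libraries by far more than libraries of a group differed. mt-Nd1, which helps to form the ubiquinone site, rose 1.31-fold, from 20.0 and 20.3 to 26.8 and 25.5 (log2 0.39, SE 0.024, adjusted p = 1.83e-10). mt-Nd4 and mt-Nd5, which pump protons as mt-Nd2 does, differed little. mt-Nd4 was at 21.7 and 21.2 against 23.0 and 22.0, and passed the test at a log2 fold change of 0.08 (SE 0.025, adjusted p = 0.0292). mt-Nd5 was at 6.31 and 6.30 against 6.66 and 6.51, with a log2 fold change of 0.08 (SE 0.030) that did not pass (adjusted p = 0.0966).

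The same order held in Cd8 cells with Ccl5 under 20, where mt-Nd3 went from 6.69 and 6.89 to 12.2 and 12.4 UMIs per 10000 (log2 0.89, SE 0.021, adjusted p = 1.15e-16). mt-Nd2 went from 23.5 and 23.8 to 38.6 and 38.2 (log2 0.73), and mt-Nd1 from 20.7 and 21.1 to 29.2 and 29.0 (log2 0.51). mt-Nd4, at 22.0 and 21.9 against 24.5 and 23.8, and mt-Nd5, at 6.73 and 6.76 against 7.39 and 7.16, rose by less (log2 0.17 and 0.14) but passed the test here (adjusted p = 1.43e-06 and 9.95e-05). In Cd8 cells with Ccl5 at least 20, mt-Nd4 overlapped between the groups, at 16.4 and 15.5 against 15.8 and 15.4 (log2 -0.01, SE 0.037, adjusted p = 0.870). mt-Nd5 was at 4.66 and 4.69 against 4.83 and 4.74 there, with an adjusted p of 0.458. In the same class mt-Nd3 still rose by 0.69 and mt-Nd2 by 0.55 on the log2 scale. In Foxp3 cells mt-Nd3 rose from 5.36 and 5.94 to 10.2 and 10.99 (log2 0.92, SE 0.065), while mt-Nd4 (log2 0.10, adjusted p = 0.349) and mt-Nd5 (log2 0.12, adjusted p = 0.360) did not pass. mt-Nd4 also did not pass in Cd4 cells with Ccl5 at least 20 (log2 0.19, adjusted p = 0.156), where mt-Nd5 did (log2 0.28, adjusted p = 0.0405).

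mt-Cytb, the cytochrome b of complex III, rose from 40.3 and 41.0 to 51.1 and 48.9 UMIs per 10000 in Cd4 cells with Ccl5 under 20 (1.25-fold, log2 0.32, SE 0.022, adjusted p = 1.12e-09). In complex IV, mt-Co2, which takes electrons from cytochrome c, rose from 54.2 and 53.8 to 74.3 and 70.6 (1.36-fold, log2 0.44, SE 0.022, adjusted p = 2.91e-12). mt-Co1, the catalytic subunit of this complex, rose by less, from 73.3 and 74.4 to 85.7 and 84.0 (1.16-fold, log2 0.22, SE 0.018, adjusted p = 3.04e-08). The groups did not overlap for any of these genes, a description without the share of all genes that did not overlap. All passed in the other classes too, with log2 fold changes of 0.14 to 0.42 for mt-Cytb, 0.13 to 0.32 for mt-Co1 and 0.30 to 0.48 for mt-Co2, each lowest in Cd8 cells with Ccl5 at least 20.

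In complex V the genes that share a messenger RNA differed. mt-Atp8, a small subunit of the membrane part, was at 1.70 and 1.72 UMIs per 10000 in control libraries against 3.88 and 3.90 under knockdown in Cd4 cells with Ccl5 under 20, a 2.31-fold rise (log2 1.21, SE 0.039, adjusted p = 3.00e-15). mt-Atp6 was at 81.2 and 80.3 against 113 and 107, a 1.38-fold rise (log2 0.46, SE 0.021, adjusted p = 9.03e-13). mt-Atp8 in Cd8 cells with Ccl5 under 20 was at 1.55 and 1.60 against 3.53 and 3.64 and mt-Atp6 at 78.2 and 79.0 against 110 and 107. Foxp3 cells had mt-Atp8 at 1.38 and 1.47 against 3.02 and 3.21, and mt-Atp6 at 66.2 and 69.7 against 93.7 and 94.7. mt-Atp8 was also higher in cells with Ccl5 at least 20, at 1.10 and 1.10 against 2.75 and 3.00 in Cd4 cells and at 1.27 and 1.38 against 2.69 and 2.77 in Cd8 cells. Over the 5 classes the rise was 2.08- to 2.74-fold for mt-Atp8 and 1.21- to 1.44-fold for mt-Atp6. mt-Nd4l, which overlaps mt-Nd4 by 7 bases, likewise rose by more than its neighbour, by 0.21 to 0.64 on the log2 scale and past the test in all 5 classes. The difference between neighbours was not tested.

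Among the 10 genes the difference was larger in shorter genes. Spearman's rho between length and the log2 fold change was -0.92 in Cd4 cells with Ccl5 under 20, -0.88 in both Cd8 classes and in Cd4 cells with Ccl5 at least 20, and -0.89 in Foxp3 cells. Over all 13 mitochondrial protein genes rho was -0.59 to -0.74: in Cd4 cells with Ccl5 under 20 mt-Nd4l, with 297 bases, was at 0.32 and mt-Nd6, with 519 bases, at 0.19 on the log2 scale without passing the test, under mt-Nd1 with 957 bases. The genes share 1 chromosome and the same libraries, and the classes share pools, so these values are descriptions. With the share of adenine in the gene, 40.7% in mt-Atp8 and 29.5% in mt-Co1, rho was 0.35 to 0.38. mt-Nd2, with 1038 bases and 36.9% adenine, lay above shorter genes. Among genes outside the mitochondrial chromosome rho with length was 0.01 to 0.12, and the 249 to 579 tested genes under 1000 bases had a median log2 fold change of 0.05 to 0.10. For the contrast of Ccl5 classes described later, rho with length was -0.16 in Cd4 and -0.28 in Cd8 cells.

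**Figure D3:**
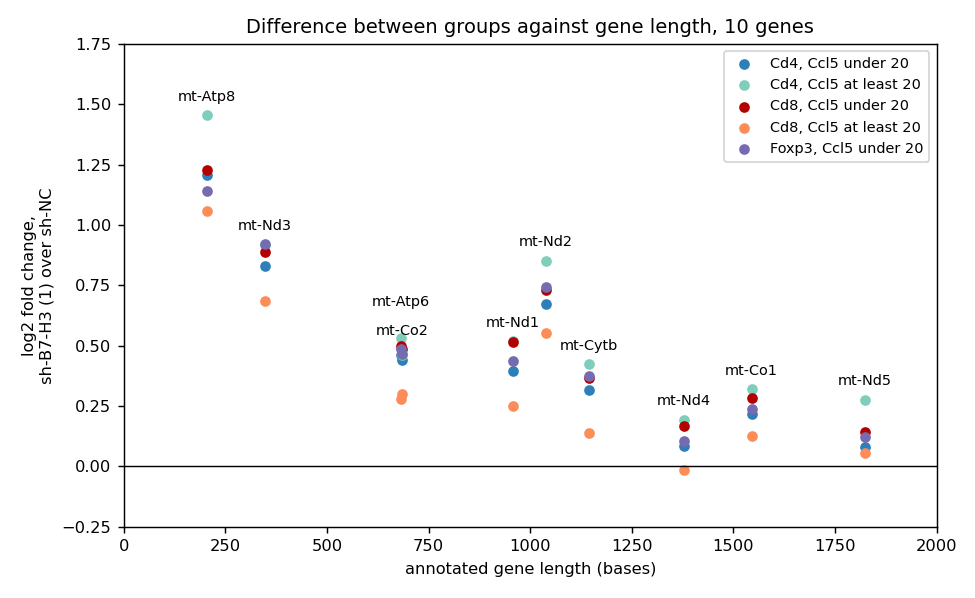
Log2 fold change, knockdown over control, against annotated gene length in bases for the 10 genes in 5 classes; each point is 1 gene in 1 class. Points fall from 1.06 to 1.45 at the 204 bases of mt-Atp8 to between 0.05 and 0.28 at the 1824 bases of mt-Nd5, with mt-Nd2 above its neighbours.

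The share of barcodes that held a gene gave the same picture after each barcode was thinned to 2000 RNA UMIs, which left out the 32 to 76 shallower barcodes of a library in Cd4 cells with Ccl5 under 20. mt-Atp8 was found in 27.7 and 28.0% of thinned barcodes in control and in 50.3 and 49.3% in knockdown libraries, against 66.4, 69.5, 84.0 and 83.1% before thinning. mt-Nd3 was found in 68.8 and 69.2% against 85.8 and 84.7%. mt-Nd4 was found in nearly all thinned barcodes, 96.5 and 96.4% against 96.4 and 96.9%, and mt-Nd5 in 66.3 and 66.5% against 67.9 and 65.8%, where the groups overlapped. No T cell lacks these genes, so no class gives a background of free RNA for these shares.

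More barcodes of the knockdown libraries lay over the 5% limit on mitochondrial UMIs that the study's methods set. In Cd4 cells with Ccl5 under 20 the share was 15.2 and 15.97% in control libraries against 40.6 and 35.4% under knockdown, and in Cd8 cells with Ccl5 under 20 it was 14.4 and 15.5% against 41.8 and 39.1%. Foxp3 cells gave 9.02 and 13.5% against 30.5 and 28.9%. In cells with Ccl5 at least 20 the shares were closer, at 9.92 and 5.76% against 12.7 and 11.8% in Cd4 cells and at 11.1 and 7.36% against 12.2 and 11.4% in Cd8 cells. Every knockdown library lay above both control libraries in each class, but 2 libraries against 2 cannot give a two-sided exact permutation p below 0.33, the value in all 5 classes. The medians moved as well as the tails, from 3.67 and 3.64% to 4.64 and 4.54% mitochondrial UMIs per barcode in Cd4 cells with Ccl5 under 20. The 10 genes make up most mitochondrial UMIs, so this limit removes barcodes by the RNA compared, and more of them from the knockdown libraries. Values under it are given as descriptions and are no check of the results. With only barcodes at or under the limit, mt-Atp8 was higher by 1.10 on the log2 scale in Cd4 cells with Ccl5 under 20, while mt-Nd4, at -0.07, was no longer called and mt-Nd5, at -0.05, was not called with or without the limit. The knockdown libraries' mean share of RNA UMIs from the 10 genes was above that of the control libraries by 0.431 percentage points under the limit against 0.948 over all kept barcodes in Cd4 cells with Ccl5 under 20, by 0.550 against 1.06 in Cd8 cells with Ccl5 under 20 and by 0.365 against 0.913 in Foxp3 cells, where 5 of the 10 were called in place of 8.

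**Figure D4:**
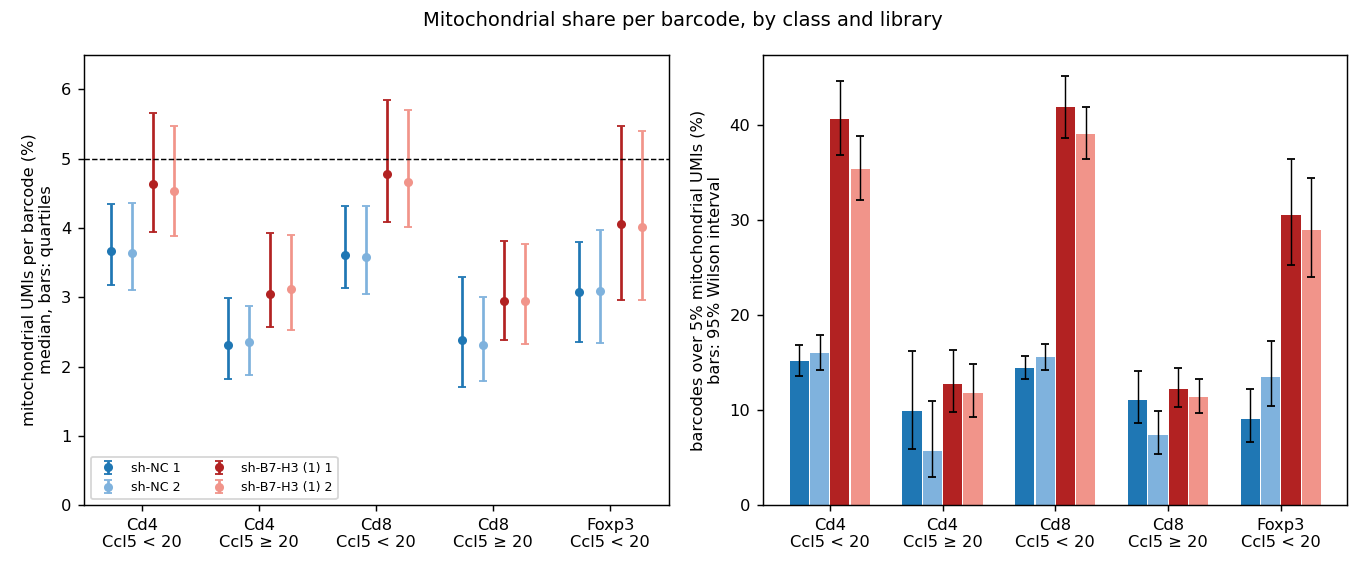
Left, mitochondrial UMIs as a percent of the RNA UMIs of a barcode, with the median as a point, quartiles as bars and the 5% limit as a dashed line; right, the share of barcodes over that limit, with 95% Wilson intervals as bars; control libraries in blue and knockdown libraries in red. The share over the limit reaches 35.4 to 41.8% in knockdown Cd4 and Cd8 cells with Ccl5 under 20 and stays at 11.4 to 12.7% in those with Ccl5 at least 20.

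Depth per barcode was lower in the knockdown libraries in the classes with Ccl5 under 20, with a median of 7568 and 8089 against 6617.5 and 6642.5 RNA UMIs in Cd4 cells, 9036.5 and 9406 against 8288.5 and 8344 in Cd8 cells, and 6654 and 6756.5 against 5396 and 5741.5 in Foxp3 cells. With Ccl5 at least 20 the groups overlapped, at 6196 and 7000 against 6750 and 6811 in Cd4 cells and at 6346 and 6330.5 against 6269 and 6345.5 in Cd8 cells. In Cd8 cells with Ccl5 under 20 and at least 8000 RNA UMIs the 10 genes took 3.14 and 3.16% of RNA UMIs in control libraries against 4.21 and 4.06% under knockdown. Under 4000 UMIs the order in this class was the other way round, at 13.6 and 16.5% against 11.2 and 10.8%, in 72 to 184 barcodes per library. Cd4 cells with Ccl5 under 20 overlapped at this depth, at 10.2 and 6.38% against 8.18 and 8.26%. The remaining classes were higher in the knockdown libraries there, at 3.41 and 3.23% against 6.04 and 6.29% in Foxp3 cells, 2.09 and 2.34% against 2.54 and 2.62% in Cd8 cells with Ccl5 at least 20, and 1.92 and 1.97% against 3.53 and 3.64% in the 6 to 26 barcodes of Cd4 cells with Ccl5 at least 20. In the deepest barcodes of Cd8 cells with Ccl5 under 20 the gap between the groups was of similar size to that in the class as a whole. With at least 8000 UMIs Cd4 cells had 3.13 and 3.25% against 4.20 and 3.91% with Ccl5 under 20, and 2.13 and 2.005% against 2.90 and 3.14% with Ccl5 at least 20. Cd8 cells with Ccl5 at least 20 had 2.87 and 2.92% against 3.33 and 3.12%. Foxp3 cells had 3.09 and 2.93% against 3.47 and 3.69%, a narrower gap than in their class as a whole.

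Other measures also differed between the groups, some upward and some downward, and their part in the result was not tested. Gm42418, a transcript that overlaps ribosomal RNA, went from 55.7 and 53.9 to 322 and 314 UMIs per 10000 in Cd4 cells with Ccl5 under 20 (log2 2.56, adjusted p = 1.13e-26 by edgeR) and rose by 2.35 to 2.48 in the other classes. All 4 genes of the RNA quality list (Malat1, Neat1, Gm42418 and AY036118) were called higher in Cd4 cells with Ccl5 under 20 and in both Cd8 classes, and 2 of 4 in the others. Of the myeloid markers tested, 8 of 9 were called higher in Cd4 cells and all 10 in Cd8 cells with Ccl5 under 20, 5 of 7 and 7 of 8 in those with Ccl5 at least 20, and 0 of 8 in Foxp3 cells. Their summed level was 2.80 and 1.77 against 5.30 and 5.52 UMIs per 10000 in Cd4 cells with Ccl5 under 20, 1.37 and 1.23 against 6.88 and 4.16 in Cd8 cells with Ccl5 under 20, and 6.99 and 1.79 against 5.48 and 9.61 in Foxp3 cells, where the groups overlapped. The classes with Ccl5 under 20 did not hold the same level of effector genes in both groups: in Cd4 cells Nkg7 was at 0.446 and 0.376 against 3.44 and 3.81 UMIs per 10000 and Ccl5 at 0.350 and 0.380 against 2.92 and 3.52, and in Cd8 cells Nkg7 was at 5.38 and 5.40 against 6.21 and 6.52. The naive T cell gene Tcf7 was at 3.64 and 3.71 against 2.82 and 2.76 in Cd4 cells with Ccl5 under 20. The classes with Ccl5 at least 20 were not matched either. Their Cd4 cells had Ccl5 at 233 and 234 against 173 and 164 UMIs per 10000. Gzmk was at 5.63 and 5.21 against 3.09 and 2.95 there, and Gzmb at 2.62 and 1.35 against 0.267 and 0.331. Nkg7 in the same Cd4 cells was higher under knockdown, at 50.7 and 49.6 against 55.0 and 53.2. Their Cd8 cells had Ccl5 at 147 and 155 against 197.4 and 197.6, but Gzmb at 3.74 and 3.71 against 2.16 and 2.78. B cell, red cell, NK and tumor or stroma markers had at most 2 genes tested in a class. Over the 5 classes their summed levels reached at most 0.195 UMIs per 10000 for B cell, 0.410 for red cell and 0.0322 for NK markers, and lay at 0.233 to 0.837 for tumor or stroma markers. In Cd8 cells with Ccl5 at least 20 the NK gene Klrb1c (-1.68), the B cell gene Cd79b (-1.38), the endothelial gene Pecam1 (-0.89) and the epithelial gene Epcam (-0.56) were called lower in the knockdown libraries. Pecam1 was also called lower in Cd4 cells with Ccl5 under 20 (-0.24), and the hemoglobin gene Hbb-bs was called higher in Cd8 cells with Ccl5 under 20 (1.93).

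Some nuclear genes of the respiratory chain were called higher and others lower. Of 75 nuclear genes of complexes I to V, 74 were tested in each class. In Cd4 cells with Ccl5 under 20, 11 were called higher (14.9%, against 6.42% of all genes) and 3 lower (4.05%, against 5.35%), with a median log2 fold change of 0.05 against 0.01 for all genes. In Cd8 cells with Ccl5 under 20, 11 were called higher and 11 lower (14.9% each, against 8.55% and 8.73% of all genes), with a median of 0.01. With Ccl5 at least 20, 19 were called higher (25.7%, against 7.96%) and 4 lower (5.41%, against 7.74%), with a median of 0.08. In Foxp3 cells 3 were called higher and 0 lower, where 2.33% of all genes were called higher. In Cd4 cells with Ccl5 at least 20 edgeR called 0 in either direction, where 1.28% of all genes were called higher, with 13 at an unadjusted p under 0.05. Uqcrfs1, the iron-sulfur protein of complex III, fell by 0.25 in Cd4 and 0.31 in Cd8 cells with Ccl5 under 20, and Sdhb, an iron-sulfur subunit of complex II, fell by 0.24 in each, on the log2 scale. Atp5k of complex V rose by 0.37 in Foxp3 cells (adjusted p = 0.00470), and by 0.33 in Cd4 cells with Ccl5 under 20 and 0.29 and 0.34 in Cd8 cells with Ccl5 under and at least 20. A further list held genes that transcribe, copy and process mitochondrial DNA and RNA, and nuclear regulators such as Nrf1 and Ppargc1a. Of this mitochondrial DNA expression list 19 to 26 genes were tested in a class, 0 or 1 was called higher and 0 lower. Of all genes 1.28 to 8.55% were called higher, and 5.35 to 8.73% lower in the classes with that share given above. So few calls therefore say little about this list. Of the other mitochondrially encoded genes, mt-Co3 rose in all 5 classes, by 0.17 to 0.39 on the log2 scale, and mt-Nd6 passed in Cd8 cells with Ccl5 under 20 (0.37) and in Foxp3 cells (0.50) and in no other class.

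Cells with Ccl5 at least 20 had less RNA of all 10 genes than cells of the same lineage with Ccl5 under 20. Averaged over both groups, with library as a block in edgeR, all 10 were called lower in Cd4 cells, where 27.1% of all genes were called lower, and all 10 in Cd8 cells, against 30.8%. mt-Cytb fell by 0.999 on the log2 scale in Cd4 cells (SE 0.032, adjusted p = 2.72e-27), mt-Nd2 by 0.99 and mt-Atp6 by 0.93, and mt-Co1 fell least, by 0.66. In Cd8 cells mt-Nd2 fell by 0.93 (SE 0.028, adjusted p = 1.80e-28), mt-Cytb by 0.90 and mt-Nd5 by 0.85, while mt-Co1, mt-Co2 and mt-Atp8 fell least, by 0.59, 0.59 and 0.60. In the libraries mt-Cytb was at 40.3, 41.0, 51.1 and 48.9 UMIs per 10000 in Cd4 cells with Ccl5 under 20 and at 25.8, 22.8, 30.6 and 31.5 in those with Ccl5 at least 20, lower within each library. These levels are not rescaled as in the edgeR fit, and in every library they fall by less than the 0.999 above. With all RNA UMIs outside the mitochondrial genes as the library size, the median of all genes moved to 0.24 and 0.26 and the 10 genes lay at -0.40 to -0.74 in Cd4 and at -0.32 to -0.67 in Cd8 cells, all still called. The 20 UMI limit takes no account of depth, and a split at 20 Ccl5 UMIs per 10000 RNA UMIs also called all 10 lower in both lineages. The gap varied with depth. In Cd8 cells with at least 8000 RNA UMIs the 10 genes took 3.14, 3.16, 4.21 and 4.06% of RNA UMIs with Ccl5 under 20. With Ccl5 at least 20 they took 2.87, 2.92, 3.33 and 3.12% (control libraries first). From 4000 to under 6000 UMIs these were 3.96, 4.38, 4.27 and 4.05% against 2.12, 1.89, 2.80 and 2.77%. Cd4 cells with at least 8000 had 3.13, 3.25, 4.20 and 3.91% against 2.13, 2.005, 2.90 and 3.14%. The part of depth was not tested.

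The nuclear partners were called in both directions. In Cd4 cells 36 of 74 nuclear genes of complexes I to V were called higher (48.6%, against 27.1% of all genes) and 9 lower (12.2%, against 27.1%), with a median log2 fold change of 0.11. In Cd8 cells 32 were called higher (43.2%, against 29.7%) and 21 lower (28.4%, against 30.8%), with a median of 0.02. Complex IV gave the clearest contrast within 1 complex: of its 11 nuclear genes, 9 were called higher and 0 lower in Cd4 cells with a median of 0.41, and 8 and 1 in Cd8 cells with a median of 0.27, while mt-Co1 and mt-Co2 fell in both. Of the 26 genes tested of the mitochondrial DNA expression list, which also holds nuclear regulators, 1 was called higher and 11 lower in Cd4 cells (42.3%, against 27.1% of all genes). Their median was -0.42 against -0.02 for all genes. In Cd8 cells 1 was called higher and 14 lower (53.8%, against 30.8%), with a median of -0.35. These splits depended on the scaling. With RNA UMIs outside the mitochondrial genes as the library size, 41.3% of all genes were called higher and 17.0% lower in Cd4 cells, and 50.2 and 16.5% in Cd8 cells. The nuclear genes were then 61 higher and 2 lower in Cd4 and 64 and 1 in Cd8 cells, and the mitochondrial DNA expression genes 1 and 8 in Cd4 and 6 and 8 in Cd8 cells. In the main scaling Twnk, the helicase that unwinds mitochondrial DNA, was among the genes called lower (log2 -1.12, adjusted p = 2.55e-07, Cd8 cells). T cell marker genes were higher in cells with Ccl5 at least 20, 5 of 6 called in each lineage, Cd3g by 1.52 in Cd4 and 1.16 in Cd8 cells.

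**Figure D5:**
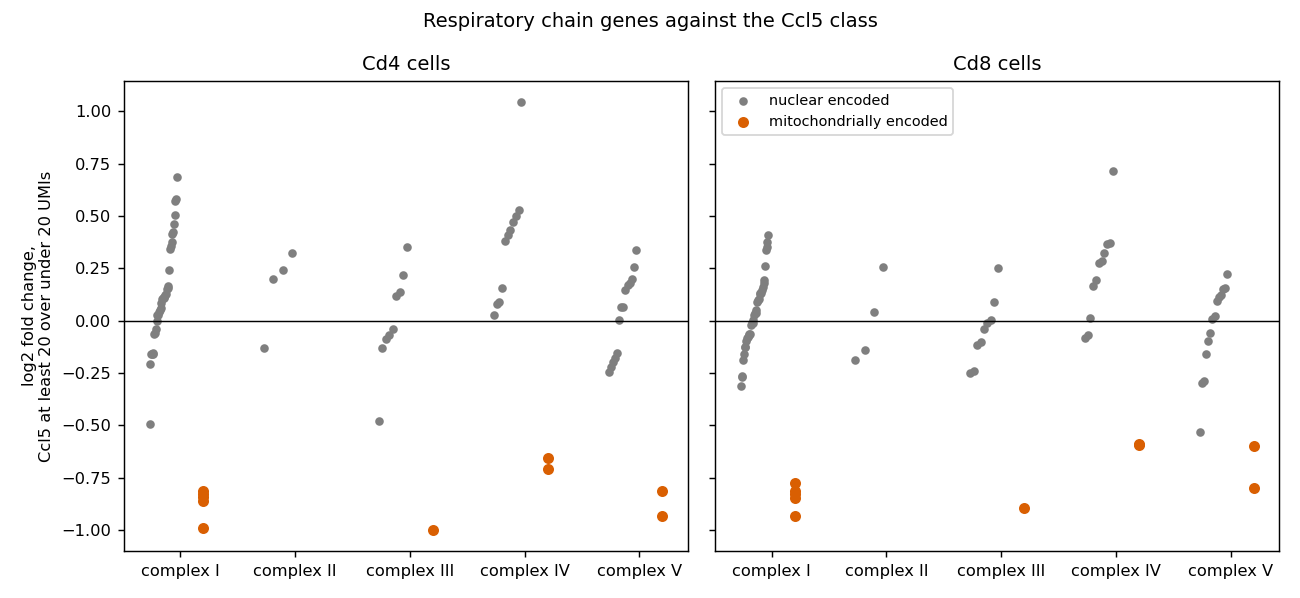
Log2 fold change, Ccl5 at least 20 over Ccl5 under 20 UMIs, of nuclear (grey) and mitochondrially encoded (orange) genes of each respiratory complex in Cd4 and Cd8 cells; each point is 1 gene and complex II has nuclear genes only. The orange points lie at -0.59 to -0.999, under the grey points of the same complex in both panels.

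Among cells with Ccl5 under 20, Cd8 cells had slightly more RNA of most of the 10 genes than Cd4 cells. Called higher were 8 of 10, against 17.6% of all genes: mt-Nd2 by 0.32 on the log2 scale (SE 0.027, adjusted p = 1.25e-12), mt-Nd5 by 0.29, mt-Nd1 by 0.27, mt-Nd4 by 0.23, mt-Nd3 by 0.21, mt-Co1 by 0.18, mt-Co2 by 0.15 and mt-Atp6 by 0.14. mt-Cytb (0.05, adjusted p = 0.237) and mt-Atp8 (0.05, adjusted p = 0.107) did not pass. This result depended on the scaling: with RNA UMIs outside the mitochondrial genes as the library size the median of all genes moved to -0.16, 4 of the 10 were called higher and 2 lower, mt-Cytb (-0.118, adjusted p = 0.00100 by edgeR) and mt-Atp8 (-0.117, adjusted p = 6.42e-05), while mt-Co2 and mt-Atp6 turned negative without a call. Among the 10, the 5 complex I genes lay above the other 5 under both scalings, at 0.04 to 0.15 under the second, where mt-Co1 was at 0.01. Of the complex I genes outside the 10, mt-Nd4l was called higher (0.22) and mt-Nd6 lower (-0.17, adjusted p = 0.00443 by edgeR) under the main scaling. The nuclear genes depended on it as well: of 74 tested, 55 were called higher in Cd8 cells and 0 lower under the main scaling (among them Sdhd of complex II by 0.43 and Atp5g1 of complex V by 0.32), but 9 higher and 15 lower under the second, where 7.84% of all genes were called higher and 37.9% lower.

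Foxp3 cells had less RNA of all 10 genes than Cd4 cells with Ccl5 under 20, and all were called lower, against 20.0% of all genes. The fall was largest for mt-Nd2, by 0.58 on the log2 scale (SE 0.029, adjusted p = 1.52e-20), and mt-Atp8, by 0.55, and smallest for mt-Co1, by 0.33. With RNA UMIs outside the mitochondrial genes as the library size all 10 stayed negative, at -0.07 to -0.33, with the median of all genes at 0.23. Of the 74 nuclear genes 24 were called higher (32.4%, against 20.2% of all genes) and 17 lower (23.0%), and of the 26 mitochondrial DNA expression genes 1 and 12 (46.2% lower). Under the other scaling 61 nuclear genes were called higher and 0 lower, and 3 and 4 of the expression genes, where 38.7% of all genes were called higher and 7.78% lower. Lower in the main scaling were Fastkd2 (-0.93) and Twnk (-0.82). The gap in the 10 genes varied with depth. With at least 8000 RNA UMIs they took 3.09, 2.93, 3.47 and 3.69% of RNA UMIs in Foxp3 cells (control libraries first). Cd4 cells had 3.13, 3.25, 4.20 and 3.91% there. Under 4000 UMIs Foxp3 cells had 3.41, 3.23, 6.04 and 6.29% against 10.2, 6.38, 8.18 and 8.26% in Cd4 cells. The part of depth was not tested.

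Whether the difference between the groups itself differed between Ccl5 classes was tested as an interaction. In Cd4 cells edgeR called 0 of the 10, with 7 at an unadjusted p under 0.05 and 1 called by DESeq2, where 3.26% of all genes were called in either direction. The interaction was between 0.04 and 0.27 on the log2 scale, and mt-Nd2 came nearest to the threshold (0.20, SE 0.060, adjusted p = 0.0564). mt-Nd4l, outside the 10, was called (0.34, adjusted p = 0.0216). In Cd8 cells the interaction was negative for all 10 genes, at -0.09 to -0.27, and all but mt-Nd5 had an unadjusted p under 0.05. edgeR called the rise smaller in cells with Ccl5 at least 20 for 3 genes, mt-Nd1 (-0.27, SE 0.061, adjusted p = 0.00568), mt-Cytb (-0.23, SE 0.061, adjusted p = 0.0205) and mt-Atp6 (-0.22, SE 0.060, adjusted p = 0.0288), against 2.85% of all genes called lower. With only barcodes at or under the 5% limit, 9 of the 10 were called in Cd4 cells and 0 in Cd8 cells. That limit removes most from knockdown cells with Ccl5 under 20 and is no check of the interaction. Without knockdown library 1, and likewise without knockdown library 2, 0 were called in Cd8 cells, and without control library 2, 8 were called. In Cd4 cells 5 were called without control library 1 and 1 without control library 2. Among the myeloid markers 5 of 8 were called with a negative interaction in Cd8 cells, among them Fcer1g at -1.62, Tyrobp at -1.50 and C1qa at -1.37, and their part was not tested. Effector genes also differed between the groups within the Ccl5 classes, as given above, and their part in the interactions was not tested either.

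Barcodes of the raw matrices that were not called as cells were read here as RNA from outside cells. They need not all be empty droplets, and this reading was not tested. Those with 1 to 100 RNA UMIs numbered 1036275 to 1636215 per library with 2792362 to 6787576 UMIs. In them the 10 genes took 414 and 412 UMIs per 10000 in control libraries against 486 and 544 under knockdown, 1.21 to 1.38 times the level in kept barcodes of the same library. All 10 were higher in both knockdown libraries than in both control libraries, mt-Atp8 by 2.39-fold, mt-Nd2 by 1.60-fold and mt-Nd3 by 1.47-fold, down to mt-Nd4 by 1.13-fold. The share of all genes that lay so in these barcodes is not given here, so this count is a description only. This sum mixes 2 ranges of depth that differ in level and in weight: barcodes with 1 to 10 UMIs held 37.3 and 37.9% of its UMIs in control libraries and 51.1 and 61.1% in knockdown libraries. Within 1 to 10 UMIs mt-Nd4, mt-Cytb and mt-Co1 overlapped between the groups, and within 11 to 100 UMIs mt-Nd3 and mt-Atp6 did. mt-Atp8 was 2.35- and 2.23-fold and mt-Nd2 1.41- and 1.55-fold higher within these ranges, but mt-Nd3 1.27- and 1.09-fold. mt-Atp8 was at 1.63 and 1.46 against 3.72 and 3.67 UMIs per 10000 in uncalled barcodes with 1 to 100 UMIs. In all kept barcodes it was at 1.63 and 1.66 against 3.52 and 3.58. For length, rho over the 10 genes was -0.49 in the sum over uncalled barcodes with 1 to 100 UMIs. In uncalled barcodes with over 100 and up to 500 UMIs the 10 genes together were lower in the knockdown libraries, at 788 and 812 against 497 and 489 UMIs per 10000, while mt-Atp8, at 3.55 and 3.16 against 7.16 and 6.79, and mt-Nd2, at 56.0 and 57.6 against 59.2 and 59.3, were still higher. Such barcodes numbered 48105 and 39556 in control libraries against 86837 and 83848 under knockdown. They held 7238743 and 5856739 RNA UMIs against 16876759 and 17774972. In both knockdown libraries this was more than the 2792362 and 2894044 in barcodes with 1 to 100 UMIs.

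Over all kept barcodes without classes, mt-Nd4 was at 21.9 and 21.6 UMIs per 10000 in the control and at 21.6 and 21.3 in the knockdown libraries, and mt-Nd5 at 6.54 and 6.52 against 6.51 and 6.36. The direction was thus opposite to that in 4 of the 5 classes for mt-Nd4 and in all 5 for mt-Nd5. The classes were not equally filled: Cd8 cells with Ccl5 at least 20, where both genes were low, numbered 504 and 530 in control libraries against 966 and 1248 under knockdown, beside 3234, 2721, 894 and 1229 Cd8 cells with Ccl5 under 20. Barcodes without a lineage count here too. They were 32.8 and 29.9% of kept barcodes in control and 40.5 and 41.5% in knockdown libraries.

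Across the 20 sums of 5 classes and 4 libraries the 10 genes moved together. Pearson's r of each gene's log2 level with the sum of the other members was 0.998 for mt-Atp6, 0.985 for mt-Nd1 and 0.981 for mt-Co1, and lowest for mt-Nd4 at 0.850 and mt-Atp8 at 0.814. Among 2249 other genes the 5 most like the summed 10 were Wdr89 (r = 0.881), Gm26917 (0.877), Gm10076 (0.863), Eef1g (0.828), a subunit of a translation elongation factor, and Tpt1 (0.818). The least like were Rnf187 (-0.954), Emc3 (-0.953), Myl12b (-0.914), a myosin light chain, Dusp2 (-0.911), a phosphatase of activated lymphocytes, and Tmed2 (-0.907). The sums share libraries and their total, so these are descriptions.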

How the data were processed

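Single-cell RNA counts of 4 CITE-seq libraries were analysed (Chromium, 10x Genomics, 3' chemistry). The deposited values were UMI counts per gene and barcode, not normalized, which the authors made with Cell Ranger (version not given in the submitters' processing notes) and the STAR aligner against mm10. The notes also name Seurat 4.0.0, which made no value used here. The tables held called barcodes and all barcodes, and antibody tags, which were not used. The 10 genes and all gene lists were chosen with earlier results of these data known.

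Barcodes with 200 to 3000 genes were kept, without a mitochondrial limit, and assigned to classes by the UMI rules given with the samples. UMIs were summed per class and library, since cells are not replicates, and tested with edgeR 4.0.16 (filterByExpr, TMM, glmQLFit, glmQLFTest, R 4.3.3) with group as the only term, 1 fit per class. Contrasts of Ccl5 classes and lineages and the interactions came from 1 fit of 20 sums with library as a block. Standard errors were derived from the log2 fold change and the F statistic. DESeq2 1.42.0, as in the study, was an alternative. The test was tried on simulated counts with known changes before use. Replicate numbers name lanes only and pair no samples.

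Named were all 10 genes, the other mitochondrial genes, of each list at most the 3 highest and 3 lowest called genes of a comparison, and the 5 genes most and least like the summed 10 (mean over 50 CPM). Marker genes were also named where they check a class, and Tcf7, Malat1, Neat1, Epcam and Hbb-bs were named after their values were seen. Doublets were not removed in the main analysis. The top 10% of Scrublet scores in each library (scanpy 1.11.5) were left out in an alternative. The other alternatives changed the normalization, the filters on genes and barcodes, the lineage and Ccl5 calls and the libraries. RNA outside cells was read from uncalled barcodes with 1 to 100 RNA UMIs. Gene places and sequences came from the GENCODE annotation and genome of GRCm38, with all 13 mitochondrial protein genes matched by identifier.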

Additional observations from a re-analysis of the deposited data

Results flagged for a closer look

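In Cd8 cells the rise between the groups was smaller with Ccl5 at least 20 than with Ccl5 under 20 by a test of the difference itself for 3 genes: mt-Nd1 (-0.27 on the log2 scale), mt-Cytb (-0.23) and mt-Atp6 (-0.22). The others of the 10 were also negative, without a call. None of the 3 was called with only barcodes at or under 5% mitochondrial UMIs, nor with those at or under 10%. Both limits remove barcodes by the RNA compared, most of all from knockdown cells with Ccl5 under 20, so they are no check of the interaction. Without knockdown library 1, and likewise without knockdown library 2, 0 of the 10 genes were called. Without control library 1 the number was 4, and without control library 2 it was 8.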

How the results depend on the processing

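Direction and side of the threshold held in all alternatives run for the falls with Ccl5 and in Foxp3 cells, with 10 of 10 genes called in each. For the knockdown comparisons the number of genes called higher stayed within 1.5 times of the main count except in Foxp3 cells with only barcodes at most 5% mitochondrial, where it was 5. Leaving out 1 library gave 8 to 9 in Cd4 and 10 in Cd8 cells with Ccl5 under 20, 6 to 10 and 6 to 8 in those with Ccl5 at least 20, and 7 to 8 in Foxp3 cells. mt-Nd4 and mt-Nd5 turned negative with only barcodes at most 5% mitochondrial, at -0.0749 and -0.0542 in Cd4 cells with Ccl5 under 20 and -0.111 and -0.0401 in Foxp3 cells. That limit and the 10% limit select on the RNA compared and are no check of the rise. In the classes with Ccl5 under 20 the lowest and the highest log2 fold change of the 10 genes both fell under the 5% limit. In Cd4 cells with Ccl5 at least 20 they did not, at 0.231 and 1.457 against 0.194 and 1.455 in the main analysis. In Cd8 cells with Ccl5 at least 20 they were at -0.00247 and 1.03 against -0.0134 and 1.06. In Cd8 cells with Ccl5 at least 20, mt-Nd4 turned to 0.0296 with Ccl5 split per 10000 UMIs, and without 1 library it ranged from -0.0712 (control 2) to 0.0393 (control 1), and was 0.00545 without knockdown library 2. The cause of these changes was not tested.

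For Cd8 against Cd4 cells, RNA UMIs outside the mitochondrial genes as the library size left 4 genes called higher and called 2 lower, mt-Cytb at -0.118 and mt-Atp8 at -0.117, with mt-Co2 at -0.0191 and mt-Atp6 at -0.0279 not called, and leaving out 1 library gave 8 to 9. The interaction in Cd4 cells, 0 genes in the main analysis, gave 9 with the 5% limit, 2 with a 10% limit, 1 with at least 2000 RNA UMIs, 4 with the stricter lineage call, 1 with Ccl5 split per 10000 UMIs, 1 with DESeq2, 5 with no filter on low counts, 1 without the library block, and 0 to 5 without 1 library. In it mt-Co2 turned to -0.0371 with RNA UMIs outside the mitochondrial genes as the library size. Without 1 library it ranged from -0.0144 (control 2) to 0.117 (control 1), at -0.00797 without knockdown library 2, and mt-Nd3 from -0.00251 (control 2) to 0.235 (control 1). The interaction in Cd8 cells, 3 in the main analysis, gave 0 with the 5% and 0 with the 10% limit, 6 without barcodes holding markers of other cell types, 1 with Ccl5 split per 10000 UMIs, and 0 to 8 without 1 library, with mt-Nd5 at 0.0623 under the 5% and 0.00300 under the 10% limit.

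The gap in the share of RNA UMIs from the 10 genes moved to 0.848, 0.431 and 0.751 percentage points in Cd4, 0.977, 0.550 and 0.948 in Cd8 and 0.752, 0.365 and 0.785 in Foxp3 cells with Ccl5 under 20, with at least 2000 RNA UMIs, the 5% limit and the median over barcodes in turn, and to 0.511 in Cd8 cells with Ccl5 at least 20 with the median. Without 1 library the gap in barcodes over the 5% limit was 0.686 to 4.44 percentage points in Cd8 and 2.32 to 6.49 in Cd4 cells with Ccl5 at least 20. In uncalled barcodes the gap of the 10 genes was 58.5 UMIs per 10000 at 1 to 10 UMIs and 53.8 at 11 to 100. At over 100 and up to 500 it was -307.6 for the 10 together, -17.9 for mt-Nd1, -6.36 for mt-Nd3, -22.5 for mt-Nd4, -5.23 for mt-Nd5, -41.2 for mt-Cytb, -59.5 for mt-Co1, -63.3 for mt-Co2 and -97.6 for mt-Atp6.

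With the replicate number as a block the genes called higher were 9, 8, 10, 8 and 8 in Cd4 cells with Ccl5 under and at least 20, the Cd8 cells likewise, and Foxp3 cells. Deviations of same-numbered lanes correlated at -0.16 to 0.11 over genes, so the numbers give no pairing. A crossed replicate block, added after the data were seen, called 9, 9, 10, 8 and 8. Over all genes DESeq2 called 489, 70, 696, 492 and 176 genes in these classes against 1276, 253, 1997, 1596 and 392 by edgeR, and 217 against 384 for the interaction in Cd8 cells. With no filter on low counts edgeR called 151 in Foxp3 cells, and with the 5% limit 1116 in Cd8 cells with Ccl5 under 20.

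With 1 pool per group no test reaches beyond these pools. Cells with Ccl5 at least 20 are few in the control libraries, 131 and 139 in Cd4 cells, which limits the interaction there. Lineages rest on few UMIs. The 4 libraries share no gene-independent standard, so levels are shares of RNA and not molecules per cell.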

Other observations

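Kept barcodes without a lineage entered no class comparison and no test, but they count in the values over all kept barcodes. In those with Ccl5 under 20 the 10 genes took 377 and 379 UMIs per 10000 in control libraries and 511 and 499 in knockdown libraries, above all classes with a lineage in the same library. Markers of other cells and depth differed between the groups there too: myeloid markers were at 5.90 and 7.42 against 35.0 and 29.0 UMIs per 10000, red cell markers at 7.17 and 11.1 against 22.1 and 23.5, and the median was 7171.5 and 7760 against 4484.5 and 4643 RNA UMIs per barcode. Their part in the levels was not tested. mt-Atp8 was at 1.85 and 1.86 against 4.503 and 4.45 there, and 26.8 and 25.9% against 48.3 and 50.7% of these barcodes were over 5% mitochondrial UMIs. In those with Ccl5 at least 20 the 10 genes took 259 and 258 against 327 and 336 UMIs per 10000.

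Foxp3 cells with Ccl5 at least 20, 18 and 14 barcodes in control libraries and 25 and 23 in knockdown libraries, had the 10 genes at 265 and 244 against 299 and 293 UMIs per 10000 and mt-Atp8 at 1.18 and 1.62 against 1.71 and 2.74. Their control values lay under those of Foxp3 cells with Ccl5 under 20 in the same library (279 and 295), as did their knockdown values (374 and 382).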
